A study of Rattus norvegicus with 16 samples.

Results

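Gene expression after 6 h of hydroxyurea was compared with gene expression after 2 h of hydroxyurea in cultured rat hippocampal neurons. The samples were chosen by their titles: the 3 replicates titled 6 hours and the 3 titled 2 hours, which are 6 of the 15 samples of the series. Per the labels, both groups were primary cultures from the hippocampus of embryonic day 18 Sprague-Dawley rats, and both received hydroxyurea at 5 µM, so by their labels they differed in time alone. All cultures of both groups had also been washed and moved from their growth medium to Neurobasal medium with a B27 supplement lacking antioxidants just before the drug was added. No untreated culture is labelled as matched to either time, so time on the drug and time in the new medium cannot be told apart. The sources do not say whether replicates came from separate cultures or how many embryos were pooled, so the p-values cover the scatter of these 6 samples alone, and that scatter may be technical. The extraction protocol names hippocampal tissue where the other labels name neurons in culture.

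Hydroxyurea inhibits ribonucleotide reductase, the enzyme that turns ribonucleotides into the deoxynucleotides used for DNA synthesis and repair. Neurons in culture have left the cell cycle, but they still need deoxynucleotides for repair and for mitochondrial DNA, and dividing glia and progenitors in the same dish need them for replication. Immediate early transcripts, such as those of the Fos and Nr4a families, appear and decay quickly after a stimulus, while delayed transcripts, such as those of stress cytokines and metabolic enzymes, follow later.

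Total RNA was labelled with Cy3 and hybridised to 1-colour Agilent arrays, 1 array for each of the 6 samples. Levels are log2 signal minus the 75th percentile of the array, so 0 is a signal at that percentile, and a level is compared only between samples for the same probe. On the 6 arrays 64.7% to 68.8% of probes were well above background, no spot was saturated, and replicate spots had a median coefficient of variation of 4.12% to 7.42%. Replicates 1 and 2 of both groups lay on one slide and replicate 3 of both groups on the other, so slides were balanced between the times. The sample standing farthest from the others was 2 h replicate 3, at 28.7 on the first principal component (35.1% of the variance), where the other 5 samples lay between -20.9 and 7.14. The number of arrays limits the precision of every value below.

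Neuronal transcripts were present in every sample: all 20 neuron markers on the array were well above background on all 6 arrays. Markers of other cells were present as well, with 20 of 21 astrocyte markers, 12 of 15 oligodendrocyte lineage markers and 12 of 12 radial glia and progenitor markers above background on all 6 arrays. Of the microglia markers 8 of 15 were above background on all 6 arrays, while Ptprc, Itgam, Fcgr3a and C1qc were above it on none. Of the 12 endothelium markers on the array, 4 were above background on all 6 arrays and 7, including Cldn5, Tek, Tie1 and Flt1, on none. The summed signal of the neuron markers, as log2, ran from 7.35 to 7.64 at 2 h and from 7.32 to 7.55 at 6 h. The astrocyte sum ran from 8.24 to 8.37 and from 8.22 to 8.35, and that of fibroblasts and pericytes from 1.83 to 2.50 and from 1.84 to 2.35. The ranges at 2 h and 6 h overlapped for all 8 marker lists. In cultures measured whole, fewer cells of a type and less RNA per cell cannot be told apart.

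No transcript passed the test between 6 h and 2 h of hydroxyurea. Of 19698 probes kept because all 3 arrays of one time or the other read them well above background, 0 (0%) had an adjusted p under 0.05 in limma, and the smallest adjusted p was 1.00. An unadjusted p under 0.05 was reached by 417 probes (2.12%), of which 194 (0.985%) were higher at 6 h and 223 (1.13%) lower, fewer than the 985 that a uniform spread of p-values would give. The smallest unadjusted p in limma was 3.64e-04. For 1109 probes (5.63%) the 3 values of one time did not overlap the 3 of the other, 558 (2.83%) of them higher at 6 h and 551 (2.8%) lower. Were every arrangement of the 6 values equally likely, a larger share, 0.1 of the probes, would be without overlap. The count at an unadjusted p under 0.05 was 1087 without 2 h replicate 1, which is above 985. Leaving out any other single sample gave between 380 and 587. The adjusted threshold was passed by 0 probes whichever of the 6 samples was left out.

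Measured against the scatter of these 6 samples, the intervals were narrow for most transcripts. That scatter may be technical, so they do not bound a change between separate cultures. The median SD within a group was 0.15 on the log2 scale, and the 95% interval of the difference lay inside 2-fold in either direction for 19335 probes (98.2%). Measured differences exceeded 2-fold for 18 probes and 1.5-fold for 121, of which 109 were in the dimmest of 3 equal classes by signal. In that dim class 5.10% of probes had an unadjusted p under 0.05, against 0.838% in the middle class and 0.411% in the bright class. Probes well above background at a single time are among those kept, which favours a difference. Limited to probes well above background on all 6 arrays, the count was 355 of 19074, beside 417 of 19698. It was not split by class. Taking arrays in pairs, the median absolute log2 difference over probes was 0.137 to 0.196 for the 6 pairs at the same time and 0.112 to 0.205 for the 9 pairs at different times. The medians of these pairs were 0.147 at the same time and 0.137 at different times, and the ranges overlapped. A larger share of the same-time pairs lay across slides, so slide and time are mixed in this measure, which was not tested.

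**Figure D1:**
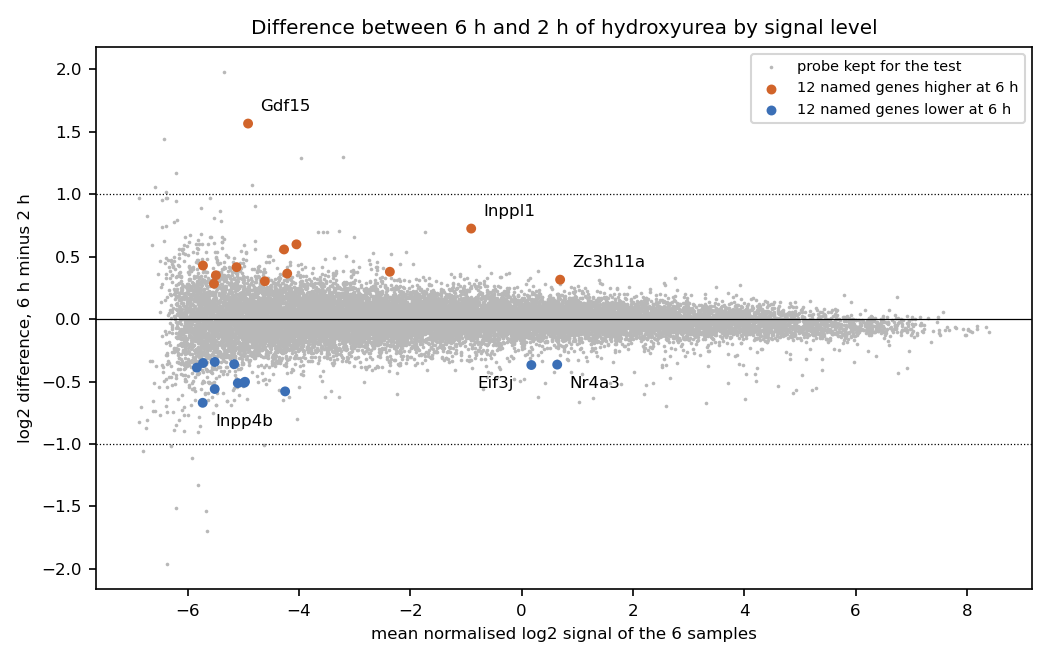
Log2 difference between 6 h and 2 h of hydroxyurea (vertical axis) against mean normalised log2 signal of the 6 samples (horizontal axis), 1 point per probe kept, with dotted lines at 2-fold. The 18 probes beyond 2-fold all lie at low signal, and the 24 coloured genes are those named by p among genes whose groups did not overlap; none passed the adjusted threshold.

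Gdf15 had the largest difference in either direction among the 24 genes named by p. It encodes a secreted cytokine of the TGF-beta superfamily that many cells release under mitochondrial, integrated stress or p53 signalling. Its level was -6.20, -5.38 and -5.51 in the 2 h replicates and -4.76, -3.23 and -4.41 in the 6 h replicates. The groups did not overlap, and 6 h replicate 2 stood highest. The difference was 1.56 on the log2 scale (SE 0.38, n = 3 and 3, 95% interval 0.68 to 2.45), or 2.96-fold higher at 6 h, with an adjusted p of 1.00 in limma. Gdf15 was in the dim class, where large differences were most frequent. Choosing genes for a small p favours differences and intervals too far from 0, which holds for all 24. Across 21 alternative ways of processing the Gdf15 difference ranged from 0.81 to 1.88, and without 6 h replicate 2 it was 1.11. The untreated group, at -4.56 ± 0.34 (SD, n = 3), was closer to the 6 h mean of -4.13 than to the 2 h mean of -5.70. The 12 h mean was -4.12 and the 24 h mean -5.47, with 24 h replicates as far apart as -3.64 and -6.94, a spread within one time larger than the difference between 2 h and 6 h.

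The RefSeq table of promoter windows (GRCr8) holds 2 windows for Gdf15, shown because this gene had the largest difference among those named; no readout of promoter activity or factor binding exists here. Window 1 is chr16:18838186-18838485 and window 2 is chr16:18839015-18839314, both on the plus strand and 300 bases long. Capitals mark TATAAA, the TATA box letters, and GGGCGG, the GC box letters, on either strand, overlapping matches included.
Gdf15 window 1: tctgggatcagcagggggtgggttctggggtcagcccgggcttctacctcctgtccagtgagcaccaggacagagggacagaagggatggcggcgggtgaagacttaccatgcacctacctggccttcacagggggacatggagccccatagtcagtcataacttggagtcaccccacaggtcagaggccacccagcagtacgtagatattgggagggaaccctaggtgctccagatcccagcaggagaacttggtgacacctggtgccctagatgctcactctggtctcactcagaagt
Gdf15 window 2: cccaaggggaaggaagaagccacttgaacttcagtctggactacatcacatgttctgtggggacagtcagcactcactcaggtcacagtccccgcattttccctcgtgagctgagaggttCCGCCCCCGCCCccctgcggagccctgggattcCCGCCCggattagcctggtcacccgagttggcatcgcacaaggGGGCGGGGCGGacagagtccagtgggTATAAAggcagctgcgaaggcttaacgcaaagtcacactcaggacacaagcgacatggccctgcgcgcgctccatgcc
Window 1 held neither motif, and window 2 held 1 TATAAA and 5 GGGCGG, some of which overlap. Neither held TGACG, the core letters of a cyclic AMP response element, on either strand. Over the 33469 promoter windows of the table, 14.2% held TATAAA, 33.1% GGGCGG and 21.2% TGACG on at least 1 strand.

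Inppl1 had the smallest p among named genes higher at 6 h, without overlap and well above background on all 6 arrays. It encodes SHIP2, a phosphatase that removes a phosphate from the lipid product of PI3-kinase. Its level was -1.49, -1.38 and -0.94 at 2 h and -0.50, -0.59 and -0.55 at 6 h, so the groups did not overlap and the 6 h replicates lay close together. The difference was 0.72 (SE 0.15, n = 3 and 3), or 1.65-fold. The 3 untreated samples, at -1.13 ± 0.62 (SD), spanned -1.82 to -0.62, a range that held all 3 of the 2 h values.

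The other genes on the higher side differed by less. Zc3h11a, a zinc finger protein of nuclear mRNA export, read 0.63, 0.56 and 0.42 at 2 h and 0.95, 0.77 and 0.83 at 6 h, a difference of 0.31 (SE 0.10). Ddx17, a DEAD-box RNA helicase, read -2.55, -2.42 and -2.70 at 2 h and -2.26, -1.98 and -2.29 at 6 h, a difference of 0.38 (SE 0.12). Both were among the few named genes outside the dim class. Apeg3, an RNA antisense to the imprinted gene Peg3, read -4.42, -4.05 and -4.56 at 2 h and -3.67, -3.79 and -3.78 at 6 h, a difference of 0.60 (SE 0.14). The remaining 7 were Atosb at 0.56, AA926063 at 0.43, the silent potassium channel subunit Kcnf1 at 0.41, the sialyltransferase St3gal3 at 0.36, the desaturase family member Fads6 at 0.35, the membrane protein Tmem25 at 0.30 and the autophagy initiation factor Atg13 at 0.28. Of the 12 genes on the higher side, 9 were in the dim class. None of the 12 passed the adjusted threshold.

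Among named genes lower at 6 h, without overlap and well above background on all 6 arrays, Inpp4b had the smallest p. It encodes another phosphoinositide phosphatase. Its level was -5.35, -5.33 and -5.51 at 2 h and -6.06, -5.89 and -6.26 at 6 h, a difference of -0.67 (SE 0.12). Its other probe read 0.17 (SE 0.13) in the opposite direction, so the probes of this gene disagreed. The same held for Eif3j, a translation initiation factor subunit, at -0.37 by one probe and 0.08 by the other, and for Scx, the tendon transcription factor scleraxis, at -0.58 and 0.08.

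Nr4a3, an orphan nuclear receptor of the immediate early class, was the one gene on the lower side, besides Eif3j, outside the dim class. Its level was 0.73, 0.73 and 1.00 at 2 h and 0.56, 0.43 and 0.38 at 6 h. The groups did not overlap, and 2 h replicate 3 stood highest. The difference was -0.36 (SE 0.11, 95% interval -0.63 to -0.10), with an adjusted p of 1.00 in limma, and it ranged from -0.62 to -0.24 over the alternatives. The untreated mean was 0.60 ± 0.14 (SD, n = 3), between those of 2 h (0.82) and 6 h (0.46).

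Among the other 8 genes on the lower side, Drd5, the D5 dopamine receptor, read -4.87, -4.63 and -4.69 at 2 h and -5.22, -5.15 and -5.36 at 6 h, a difference of -0.51 (SE 0.11). Lifr, the leukaemia inhibitory factor receptor, differed by -0.51. Tnfrsf19, a receptor of the TNF family, differed by -0.50, and by -0.33 without 6 h replicate 2. Avpr2, the kidney vasopressin receptor, differed by -0.39, the peptide urotensin 2 (Uts2) by -0.36 and the gap junction protein Gjb1 by -0.35. The germ cell genes Adad1 and Prm2 differed by -0.56 and -0.34. Of the 12 genes on the lower side 10 were in the dim class.

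All 24 genes kept their sign under all 21 alternatives, and the lowest adjusted p that any of them reached there was 0.662. They were selected for groups that do not overlap, so leaving out a sample, taking 1 slide or weighting arrays could not turn a sign. Blocks, other groups in the fit, another prior and the filters left the difference itself as it was. Only another background correction, normalization, score or probe mean could have turned one. For most alternatives the sign was thus fixed by the selection, and its steadiness is no support for a difference. The size was less steady. Among genes on the lower side, the smallest difference over the alternatives was -0.01 for Avpr2, -0.04 for Prm2 and -0.05 for Gjb1. It was -0.08 for Adad1 and for Uts2, and the other genes on that side stayed at -0.14 (Eif3j) or beyond. On the higher side the smallest was 0.15, for Tmem25. The cause was not tested. The untreated mean lay between the 2 h and 6 h means for 11 of the 12 genes on the higher side and 10 of the 12 on the lower side, an order that choosing genes for their 2 h and 6 h extremes favours.

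**Figure D2:**
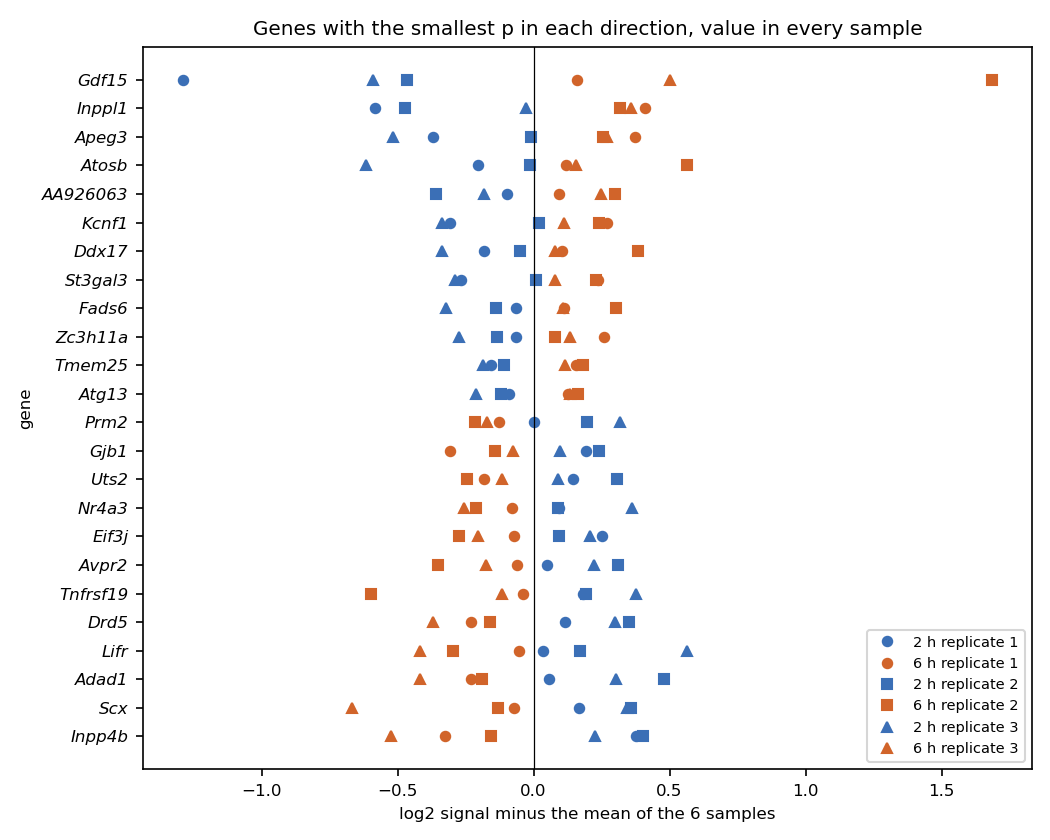
Level of the 24 genes named by p in every sample, as log2 signal minus the mean of the 6 samples (horizontal axis), with genes ordered by difference; blue is 2 h, orange is 6 h and the marker shape gives the replicate. The 2 h and 6 h samples lie on either side in every row because the genes were chosen so, and Gdf15 in 6 h replicate 2 lies farthest out.

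Only 3 named genes were well above background on all arrays of one time and on none of the other. Each passed the background filter only through the time where it read higher, so the choice itself favoured a difference. The folds given are lower bounds for the measured means alone, with lower values raised to the lowest detected signal of the array. They carry no sampling error. Rgs22, a regulator of G protein signalling, read -7.15, -6.49 and -7.07 at 2 h, not well above background, and -6.09, -5.77 and -5.80 at 6 h, at least 1.76-fold higher. Plaur, the urokinase receptor, read -6.06, -5.44 and -5.89 at 2 h and, not well above background, -6.85, -7.07 and -6.00 at 6 h, at least 1.58-fold lower by the means, although 6 h replicate 3 overlapped the 2 h range. The gene 1700013G24Rikl was at least 1.45-fold lower at 6 h, where it was not well above background. All 3 had an adjusted p of 1.00 in limma. Each lay near the limit of detection in every sample, and the bounds hold only for the processing used: over the alternatives the fitted log2 difference came as close to 0 as 0.29 for Rgs22, -0.11 for Plaur and -0.11 for 1700013G24Rikl.

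The measured transcripts of the drug's target did not differ detectably between the times. Rrm1, the large subunit of ribonucleotide reductase, read -4.25, -4.10 and -4.09 at 2 h and -4.17, -4.08 and -4.18 at 6 h, a difference of 0.01 (SE 0.10, 95% interval -0.21 to 0.23). Rrm2, the small subunit used in S phase, read 3.25, 3.18 and 3.20 at 2 h and 2.92, 3.24 and 3.31 at 6 h, a difference of -0.05 (SE 0.12, 95% interval -0.33 to 0.22), with 0.08 by another probe. Rrm2b, the p53-induced small subunit, was above background on 0 of the 6 arrays. Of 14 measured genes of deoxynucleotide supply 7 were higher and 7 lower at 6 h, with a median difference of -0.02, 5 to 8 higher when each sample was left out in turn, and a range of -0.16 (Dck, a salvage kinase) to 0.11 (Dctd, a deaminase). Of 40 measured cell cycle genes 16 were higher and 24 lower, with a median of -0.01, and without 2 h replicate 1 the count was 20 and 20. Beside these, all 10805 named genes had 5278 higher and 5527 lower.

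The 18 genes set by name, whatever their values, included activity genes, hypoxia genes and stress genes. Of the 16 that were measured, 0 had groups that did not overlap (5.63% of all probes) and 0 had an unadjusted p under 0.05 in limma (2.12% of all probes), near those backgrounds for so few genes. Their differences ran from -0.31 for Fos to 0.26 for Vegfa, and all 16 intervals lay inside 2-fold, the widest bound being 1.63-fold for Cdkn1a. A 2-fold difference in either direction thus lay outside the interval for each of these transcripts, by the probe used. Those intervals cover only the scatter of the samples measured, which may be technical.

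Among immediate early genes, transcripts that activity or growth factors induce within minutes, Fos and Fosb had lower means at 6 h, with overlapping groups, and Egr1 and Nr4a1 did not. Fos read -4.43, -4.39 and -4.59 at 2 h and -5.06, -4.47 and -4.79 at 6 h. Its difference of -0.31 (SE 0.15) was -0.16 without 6 h replicate 1 and -0.46 without 6 h replicate 2. Fosb read -2.42, -1.96 and -1.65 at 2 h and -2.33, -2.54 and -2.28 at 6 h. Its difference of -0.37 (SE 0.19) was -0.19 without 2 h replicate 3 and -0.57 without 2 h replicate 1. Egr1 differed by 0.12 (SE 0.11), Arc by -0.03 (SE 0.09), Bdnf by 0.06 (SE 0.12) and Nr4a1 by 0.06 (SE 0.11). Npas4 was above background on 0 of the 6 arrays. Of 30 measured genes of the list 15 were higher and 15 lower, with a median of -0.00, 0 passed the adjusted threshold, and 3 (Nr4a3, Gadd45g and Ier2) had groups that did not overlap, where 5.63% of all probes did the same. Without 2 h replicate 1 the list had 9 higher and 21 lower. Ccn1, a secreted matrix protein, had the widest difference, 1.30 with an SE of 0.74 and overlapping groups, and was picked out here after its values were seen. The 18 measured delayed activity-regulated genes had a median of -0.01, with 8 higher and 10 lower, or 12 and 6 without 6 h replicate 1.

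Hypoxia and glycolysis genes, among them targets of the HIF transcription factors, had a median of 0.04, with 22 of 37 higher and 15 lower. Vegfa, the vascular growth factor, read 2.00, 1.59 and 1.81 at 2 h and 1.99, 1.99 and 2.20 at 6 h by its brightest probe, a difference of 0.26 (SE 0.13). The groups overlapped, the difference was 0.15 without 2 h replicate 2, and 2 of its other probes gave -0.09 and -0.16. Ankrd37, a HIF target, differed by 0.05 (SE 0.18), and Pfkfb4, a regulator of glycolytic flux, by 0.23 (SE 0.10) without overlap. Without 2 h replicate 1 the list had 18 higher and 19 lower with a median of -0.00, and on the slide of replicate 3 its median was -0.04. None of the 37 passed the adjusted threshold.

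Stress pathways stayed close to the background of all probes, whose median difference was -0.01. Of 21 measured p53 targets and replication stress genes 12 were higher and 9 lower, with a median of 0.01, and without 6 h replicate 3 the count was 7 and 14. Gdf15 belongs to this list. Cdkn1a, the p21 cell cycle inhibitor, read 2.74, 3.14 and 3.35 at 2 h and 2.91, 2.54 and 2.90 at 6 h, a difference of -0.29 (SE 0.18), with 0.13 by another probe. It was -0.16 without 2 h replicate 3, -0.17 without 6 h replicate 2 and -0.47 without 2 h replicate 1. The 26 measured NRF2 and antioxidant genes had 12 higher and 14 lower, which became 6 and 20 without 6 h replicate 2 and 16 and 10 without 2 h replicate 2. Hmox1, heme oxygenase 1, differed by -0.02 (SE 0.20). Cat, catalase, differed by 0.24 (SE 0.14), or by 0.12 without 2 h replicate 3 and 0.14 without 6 h replicate 1. Of 26 integrated stress response and amino acid genes 8 were higher and 18 lower, with a median of -0.04; without 2 h replicate 3 this became 20 higher and 6 lower, and without 6 h replicate 2 it became 21 and 5. The 25 endoplasmic reticulum chaperones and heat shock genes had 9 higher and 16 lower, with a median of -0.03, which was 0.00 without 2 h replicate 3 or without 6 h replicate 2. Txnip differed by 0.00 (SE 0.21) and Ddit4 by -0.09 (SE 0.10), with 0.05 by another probe of Ddit4.

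**Figure D3:**
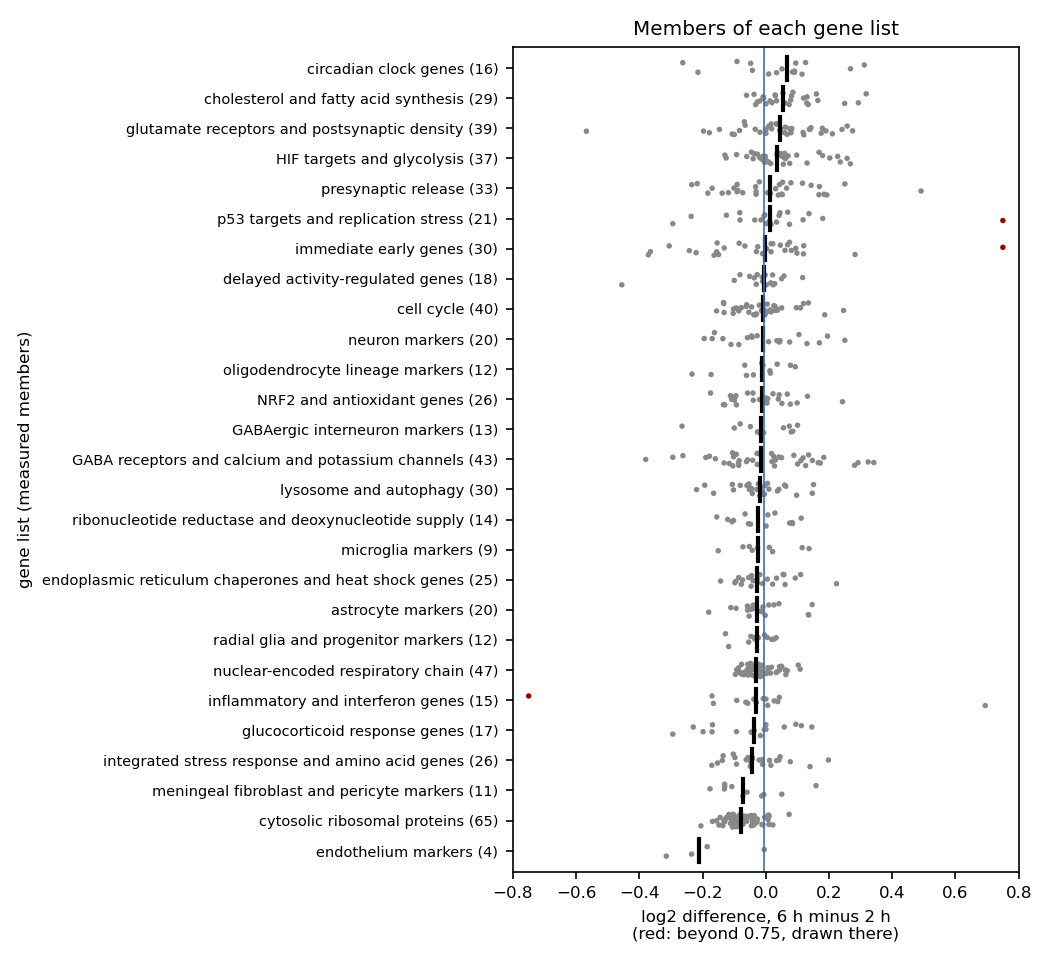
Log2 difference between 6 h and 2 h (horizontal axis) of each measured member of the 27 gene lists, with the list's median as a black bar and the median of all probes as a blue line; red points lie beyond 0.75 and are drawn there. Most medians lie near that of all probes, the 65 ribosomal protein genes lie tightly on the lower side, and the 4 endothelium markers have the lowest median.

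Cytosolic ribosomal protein genes, which encode the protein part of the translation machinery, had the most one-sided count among the lists with over 4 members. Of 65 measured 59 were lower at 6 h and 6 higher, with a median difference of -0.08, beside -0.01 for all probes, and 0 passed the adjusted threshold. The largest difference was -0.21 (SE 0.12) for Rpl14, and Rpl3 read 5.76, 5.89 and 5.99 at 2 h and 5.71, 5.75 and 5.67 at 6 h, a difference of -0.17 (SE 0.10). The median of the list, as a deviation from the mean of the 6 samples, was -0.06, 0.05 and 0.13 in the 2 h replicates and -0.15, -0.07 and 0.12 in the 6 h replicates. The samples of the 2 times overlapped, and replicate 3 was the highest at both. On the slide of replicates 1 and 2 the list had 64 lower and 1 higher with a median of -0.11; on the slide of replicate 3 it had 31 lower and 34 higher with a median of 0.01. Without 6 h replicate 1 the count was 38 lower and 27 higher with a median of -0.01, and quantile normalization gave 42 lower and 23 higher with a median of -0.02. These genes are bright and measured together in each sample, so they are not independent observations.

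Nuclear-encoded respiratory chain genes were likewise highest in replicate 3 at both times. Their list median was -0.07, 0.01 and 0.12 in the 2 h replicates and -0.11, -0.04 and 0.12 in the 6 h replicates. Of 47 measured 32 were lower at 6 h and 15 higher, with a median of -0.03. Without 2 h replicate 3 this became 18 lower and 29 higher, without 6 h replicate 1 16 lower and 31 higher, and under quantile normalization 23 lower and 24 higher.

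Cholesterol and fatty acid synthesis genes lay on the higher side, with 21 of 29 higher at 6 h and a median of 0.05. The fatty acid elongase Elovl6 differed by 0.13 (SE 0.12) by its brightest probe and by 0.69 (SE 0.14) without overlap by a dimmer one, which was picked out after its values were seen. The direction of the list rested on single samples: without 2 h replicate 2 it had 12 higher and 17 lower with a median of -0.01, and without 6 h replicate 3 13 higher and 16 lower with a median of -0.06. None of the 29 passed the adjusted threshold.

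Circadian clock genes had 11 of 16 higher at 6 h and a median of 0.07, the highest of the lists. Clock, a transcription factor of the core loop, read -4.73, -4.64 and -4.55 at 2 h and -4.13, -4.58 and -4.41 at 6 h, a difference of 0.27 (SE 0.13) with overlap that was 0.15 without 6 h replicate 1. Per1 and Per2, its repressors, each differed by 0.09. The list median was 0.02 without 2 h replicate 1 or without 6 h replicate 1, and on the slide of replicate 3 the list had 7 higher and 9 lower. Glucocorticoid response genes had 6 higher and 11 lower, or 9 and 8 without 2 h replicate 2 or without 6 h replicate 3. Fkbp5, a chaperone of the glucocorticoid receptor, read 0.45, 0.41 and 0.51 at 2 h and 0.46, 0.40 and 0.51 at 6 h.

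Genes of synaptic transmission showed no change past the test. Of 39 glutamate receptor and postsynaptic density genes 28 were higher at 6 h and 11 lower, with a median of 0.04, and 3 (Nlgn3, Shank3 and Dlg3) had groups that did not overlap, near the 5.63% of all probes. Nlgn3, a postsynaptic adhesion protein, read -4.64, -4.55 and -4.73 at 2 h and -4.27, -4.35 and -4.47 at 6 h, a difference of 0.27 (SE 0.10). Without 2 h replicate 1 the list had 19 higher and 20 lower. Grin2d, an NMDA receptor subunit, read 4.94, 5.91 and 4.80 at 2 h and 4.56, 4.51 and 4.87 at 6 h, a difference of -0.57 (SE 0.27) that was -0.22 without 2 h replicate 2. Of 33 presynaptic release genes 18 were higher and 15 lower, which became 28 and 5 without 2 h replicate 3 and 13 and 20 without 2 h replicate 1. Unc13b, a vesicle priming factor, differed by 0.49 (SE 0.20), and by 0.29 without 2 h replicate 3. Of 43 GABA receptor, calcium and potassium channel genes 21 were higher and 22 lower, with 17 to 26 higher when each sample was left out in turn.

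**Figure D4:**
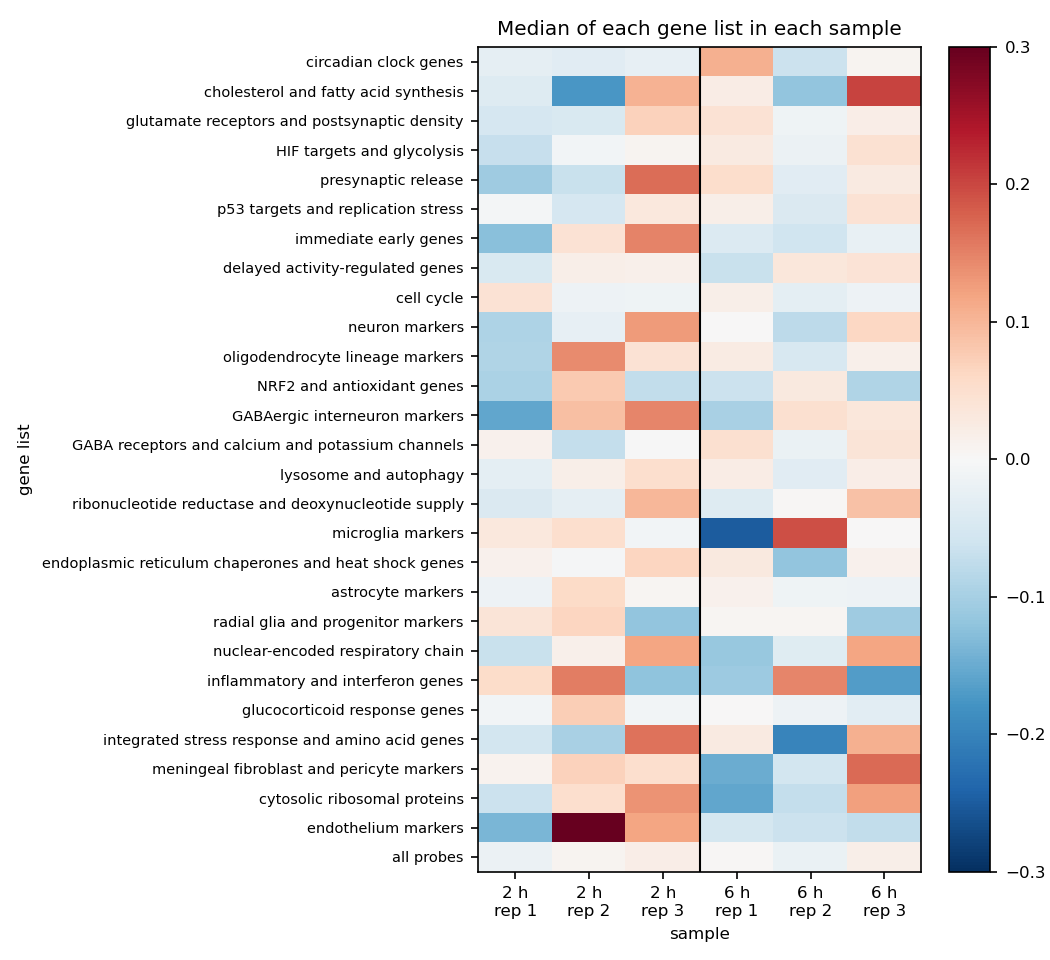
Median log2 deviation of each gene list from the mean of the 6 samples (colour scale), by sample, with the 2 h samples left of the line and the 6 h samples right of it. No list separates the times; ribosomal protein and respiratory chain lists are highest in replicate 3 of both times.

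Inflammatory and interferon genes were mostly below background, with 15 of 33 on the array measured, of which 6 were higher and 9 lower. Among those 9 was Plaur, which passed the background filter only through 2 h, where it read higher. Of the 13 members well above background on all 6 arrays, 6 were higher and 7 lower. The count for the 15 became 2 and 13 without 2 h replicate 3 and 3 and 12 without 6 h replicate 2. It became 11 and 4 without 6 h replicate 3. Irf9, a transcription factor of interferon signalling, read -3.79, -4.00 and -3.94 at 2 h and -2.39, -3.52 and -3.73 at 6 h. Its groups did not overlap, and the difference of 0.69 (SE 0.31) was 0.28 without 6 h replicate 1, the highest sample. Of 30 lysosome and autophagy genes 9 were higher and 21 lower, with a median of -0.02, and without 2 h replicate 2 the count was 15 and 15.

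Markers of cell types differed little between the times. The 20 neuron markers had 10 higher and 10 lower, or 14 and 6 without 2 h replicate 3. The 20 astrocyte markers had 6 higher and 14 lower with a median of -0.03, or 10 and 10 without 2 h replicate 2. The 4 measured endothelium markers were all lower at 6 h, with a median of -0.21, the lowest of the lists, and a smallest difference of -0.005. Without 2 h replicate 2, and likewise with normexp background correction, 3 of the 4 were lower and the median was -0.10. The count was also 3 of 4 without 2 h replicate 3, without 6 h replicate 1 or 2, and on the slide of replicates 1 and 2. The median was -0.35 without 2 h replicate 1 and -0.13 without 6 h replicate 1. Cdh5, an endothelial cadherin, read -3.91, -3.66 and -3.90 at 2 h and -3.95, -4.19 and -4.28 at 6 h, a difference of -0.31 (SE 0.12), and Pecam1, an endothelial adhesion protein, differed by -0.23 (SE 0.12), or by -0.15 without 2 h replicate 2. Of 11 fibroblast and pericyte markers 9 were lower, with a median of -0.07, and without 2 h replicate 3 the count was 4 lower and 7 higher. None of the 27 lists had sample medians that separated the 2 h from the 6 h samples, and 0 members of any list passed the adjusted threshold.

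**Figure D5:**
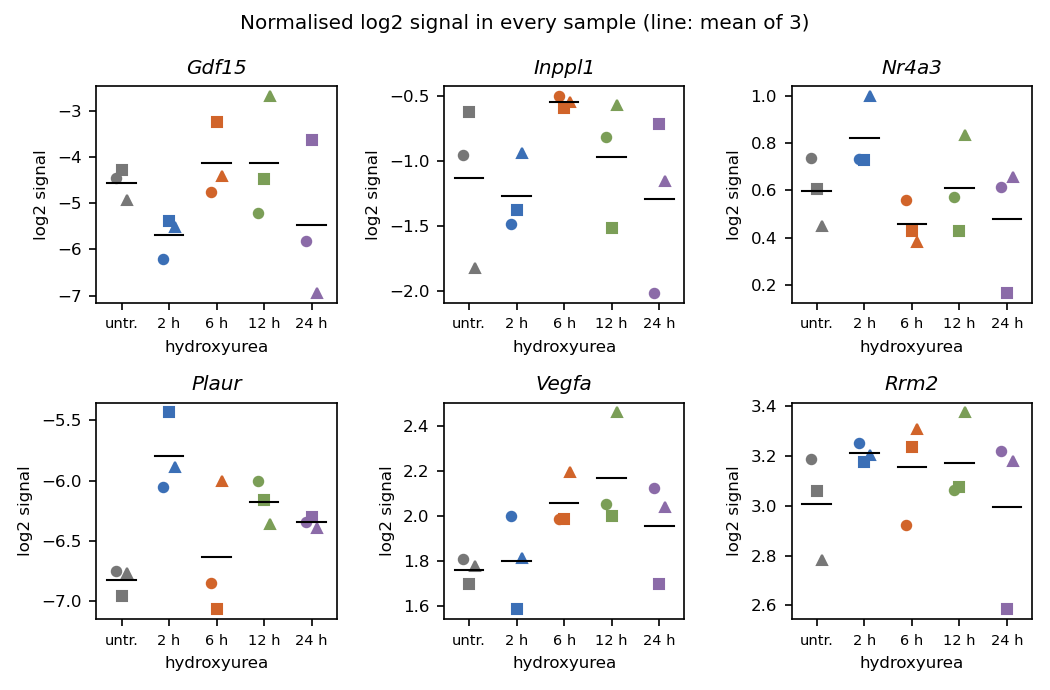
Normalised log2 signal of 6 genes in all 15 samples by group (horizontal axis: untreated, then 2, 6, 12 and 24 h of hydroxyurea); symbols give replicates 1 (circle), 2 (square) and 3 (triangle) and the line is the mean of 3. Gdf15 is lower at 2 h than at 6 h, yet its untreated and 12 h means lie near the 6 h mean, and the 24 h replicates of Gdf15 and of Inppl1 spread wider than any 2 h or 6 h group; Plaur was not well above background at 6 h.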

How the data were processed

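Per the labels' protocols, Cy3-labelled cRNA of total RNA was hybridised to 1-colour Agilent arrays. The authors deposited 1 scanner file per array with intensity values for each spot, made with Agilent Feature Extraction 11.5.1.1 per the file headers; the processed signal had its background subtracted and was not scaled between arrays. The authors also deposited a standard score for each spot, centred and scaled within its array, which served as an alternative. Each array had 62976 spots, of which 4259 control spots and outlier-flagged spots were left out. Spots of a probe were averaged, giving 30367 probes, and 15 had no usable spot. Processed signals were log2-transformed and centred on each array's 75th percentile over non-control spots. Unversioned accessions matched 18758 probes to 15715 symbols of RefSeq (GRCr8), and 6799 of the 19698 kept probes were unnamed.

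The 2 groups of 3 samples were fitted alone with limma 3.58.1 (R 4.3.3, with version 1.17.8 of data.table; lmFit and eBayes, two-sided, 4 residual and 4.00 prior degrees of freedom, no covariate), with Benjamini-Hochberg adjustment over all kept probes and a threshold of 0.05. The code was tested on simulated data. A gene with several probes was represented by its brightest. The genes named were, in each direction, the 12 of smallest p whose groups did not overlap and that were above background on all 6 arrays, then genes detected at one time only, the 2 of smallest p in each list, and 18 set by name. The 27 gene lists got no test. The comparison, genes and lists were chosen with earlier results of these data known. Untreated replicate 1 was the mean of 2 arrays. The alternatives were background correction, normalization, the deposited score, filters, slide, replicate block, other groups in the fit, prior, array weights, probe means and leaving out each sample. Mean signal was not found in the scanner files, so normexp (offset 50) used the median signal. Deviations of same-numbered samples had correlations of -0.02, 0.28 and 0.28 for replicates 1, 2 and 3. Samples of different number had -0.37 to 0.14. Every same-numbered pair also shared a slide, and most pairs of different number did not. Those of different number on the same slide gave 0.14 and -0.09, so number and slide are mixed. These values do not settle whether the numbers mark pairs. The main fit did not take them as pairs, and replicate number as a block was an alternative. Some genes that the naming rule selected are not reported here.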

Additional observations from a re-analysis of the deposited data

How the results depend on the processing

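With 3 arrays a time the adjusted count was 0 under every alternative run, and the lowest adjusted p of any probe in any of them was 0.106, without 6 h replicate 3. The 417 of 19698 probes at an unadjusted p under 0.05 became 105 with normexp and 1360 with array weights. They became 174 of 19642 with all 15 samples in the fit and 154 of 19659 with the 12 treated samples. Leaving out each sample in turn gave 380 to 1087, the highest without 2 h replicate 1. That count and the one with array weights were above the 985 of 19698 that a uniform spread of p-values would give. The 1109 probes whose groups did not overlap became 719 with normexp and 676 with the deposited scores. Fitting replicate number as a block gave 568 probes at an unadjusted p under 0.05 and 0 at the adjusted threshold, so the block changed no call. The cause of these shifts was not tested. Of 91 genes 0 to 7, and of 27 list medians 0 to 11, had the other sign under an alternative, while the median of all probes stayed between -0.02 and 0.01. Within the slide of replicate 3 there is 1 sample a time and no test, and counts of groups that do not overlap were not run within slides or without single samples.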
